A study of Mus musculus with 4 samples.

Results

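Solute carriers are the membrane proteins that move sugars, amino acids, carboxylates, metals, nucleosides, ions and vitamins into and out of the cell and its vesicles. All rows of the deposited table whose symbol begins with Slc and a number were taken, except the Slc25 family of mitochondrial carriers. The rule gave 174 of the 16442 rows, in 47 families. A set of 6 of them is named after a carrier but is not one: the scaffolds Slc9a3r1 and Slc9a3r2, and Slc2a4rg-ps, Slc4a1ap, Slc7a6os and Slc36a3os. They are counted with the family whose name they bear. The set is not purely of the cell surface and vesicles, since Slc8b1 works in mitochondria and several Slc35 members in the endoplasmic reticulum and Golgi.

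The libraries were made from the poly(A) RNA of stem cells of the leukaemia, which can restart the disease, taken from the bone marrow of leukaemic C57BL/6 mice. There were 2 biological replicates titled KO, from Rreb1-knockout mice, and 2 titled WT, from wild-type mice. Rreb1 encodes a transcription factor with zinc fingers that acts downstream of RAS signalling. The leukaemia is shared by both groups, and the sources used here do not give its driver, the deleted part of Rreb1, the ages of the mice or how many mice make up a replicate. The genotype entry of the second KO library names Rreb2, and an extraction protocol speaks of tumour-associated macrophages, so libraries were grouped by their titles. The series concerns mitochondrial proteins and succinate in acute myeloid leukaemia.

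A leukaemic cell in the marrow takes up glucose and glutamine and releases lactate. Glucose enters down its gradient through Slc2 carriers. Glutamine and other neutral amino acids enter by sodium-coupled carriers and exchangers, among them pairs of the Slc3a2 heavy chain with an Slc7 light chain. Lactate leaves with a proton through Slc16 carriers, which need a chaperone protein to reach the surface. Inside the cell, Slc35 carriers bring nucleotide sugars into the Golgi for glycosylation, Slc30 and Slc39 carriers move zinc in opposite directions, and Slc17, Slc18 and Slc32 carriers fill secretory vesicles.

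Levels are in FPKM, a fragment count divided by exon length and by the assigned fragments of the library, and can be set side by side between genes. Assigned reads were 18420466 and 17037493 in the KO libraries, against 18451251 and 16590830 in the WT libraries. For 2 kb of exons, 3 reads correspond to 0.0813 to 0.0904 FPKM, a floor for counting error alone. The targeted gene itself did not separate the groups: Rreb1 had 6.10 and 6.93 FPKM in KO libraries, against 5.24 and 6.57 FPKM in WT libraries (log2 difference 0.13, limma adjusted p = 0.616). Groups are therefore those of the library labels throughout. The leukaemia stem and progenitor markers Hoxa9, Meis1, Kit, Cd34, Myb and Flt3 were all present, at a summed 159 and 154 FPKM in KO libraries, against 164 and 176 FPKM in WT libraries. None of the 6 was called by limma, with 2 higher and 2 lower at an unadjusted p below 0.05. By limma-voom Kit was called higher and both Cd34 and Flt3 lower. Markers of other marrow cells also differed between the groups. Mature neutrophil markers summed to 2927 and 3511 FPKM in KO libraries, against 1266 and 1292 FPKM in WT libraries, and 7 of 10 tested were called higher. In these bulk samples, fewer cells of a type and less RNA per cell cannot be told apart.

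Transcripts of solute carriers took up nearly the same share of the RNA in both groups. Their summed level was 1971 and 1936 FPKM in KO libraries, against 2005 and 1946 FPKM in WT libraries. That is 0.548% and 0.525% of all FPKM in KO libraries, against 0.557% and 0.548% in WT libraries, and the ranges touch. Rows were put in classes by family, so not every row carries what its class is named for. The amino acid class held 26.7% of the summed level, nucleosides and nucleotide sugars 23.0%, metals and haem 16.2%, and sugars 9.83%. The amino acid share includes Slc36a3os, not a carrier, at 41.8 and 49.3 FPKM in KO libraries, against 50.9 and 42.7 FPKM in WT libraries. Among the 174 rows, 40 averaged at least 10 FPKM over the 4 libraries and 13 at least 50 FPKM.

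The one row over 100 FPKM was Slc1a5, the exchanger that brings glutamine into the cell. It had 200 and 191 FPKM in KO libraries, against 177 and 190 FPKM in WT libraries. The KO libraries were higher by a margin smaller than the spread within WT. Slc48a1, which carries haem out of endosomes and lysosomes, was the next in level, at 83.3 and 85.0 FPKM in KO libraries and 87.8 and 77.7 FPKM in WT libraries.

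**Figure D1:**
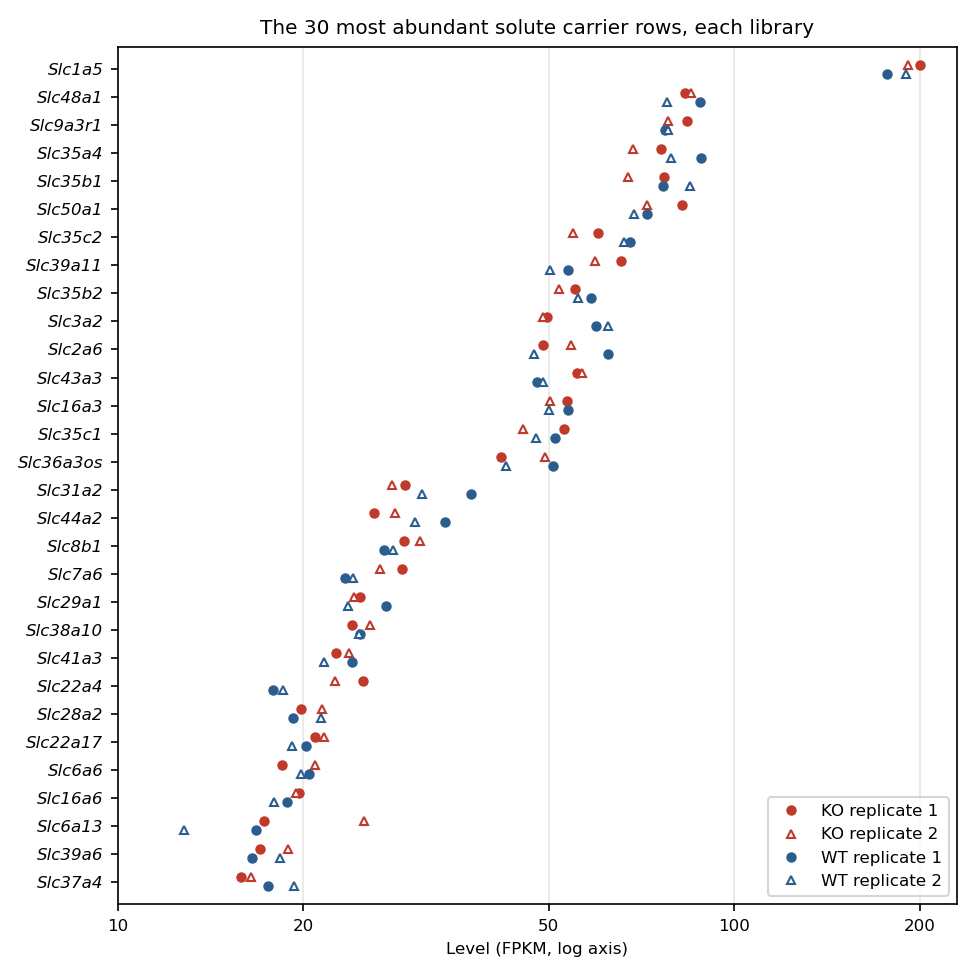
Level of the 30 solute carrier rows with the highest mean, in FPKM on a log axis, with a red point for each KO library and a blue point for each WT library (circles replicate 1, triangles replicate 2). Slc1a5 stands apart at 177 to 200 FPKM, the Slc35 family supplies several of the rows over 50 FPKM, and for most rows the 4 points lie close together.

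Of the 174 rows, 131 passed the filter of a mean of at least 1 FPKM and were tested with limma on log2(FPKM + 1), in a fit over all 11768 rows that passed. A single row, Slc32a1, was called higher in KO at an adjusted p below 0.05, where 0.603% of all tested rows were. None was called lower, where 0.408% of all tested rows were. At an unadjusted p below 0.05, 9 of the 131 were higher in KO against 11.4% of all tested rows, and 16 were lower against 9.35%. Both KO libraries lay above both WT libraries for 38 of the 131, against 30.5% of all tested rows, and below them for 40, against 24.9%. Counted in these ways the solute carriers stood near the background of the table. The same shares are the background for the counts of tested rows in the classes and lists that follow.

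Recovered whole reads tested with limma-voom gave more calls. There 2 of 129 solute carriers were called higher, Slc32a1 and Slc2a3, against 4.46% of the 11365 rows tested. A further 4 were called lower, Slc7a7, Slc45a3, Slc19a1 and Slc27a1, against 2.82%. As shares of the members tested these are 1.55% higher and 3.1% lower. A row is referred to as called where its adjusted p was below 0.05 with limma on log2(FPKM + 1), unless limma-voom is named, and limma-voom called no other solute carrier.

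The differences were small as well as mostly uncalled. The median log2 difference of the 131 was −0.02, against 0.025 over all tested rows, and 69 lay below 0 and 62 above it. Differences ran from −0.75 for Slc45a3 to 0.79 for Slc32a1, and 5 rows exceeded 0.5 in size. For 128 of the 131 (97.7%) the 95% confidence interval lay within 1 log2 unit either side of 0, against 92.8% of all tested rows. For 92 it lay within 0.5. The median standard error was 0.118 for the members and 0.120 for all tested rows.

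**Figure D2:**
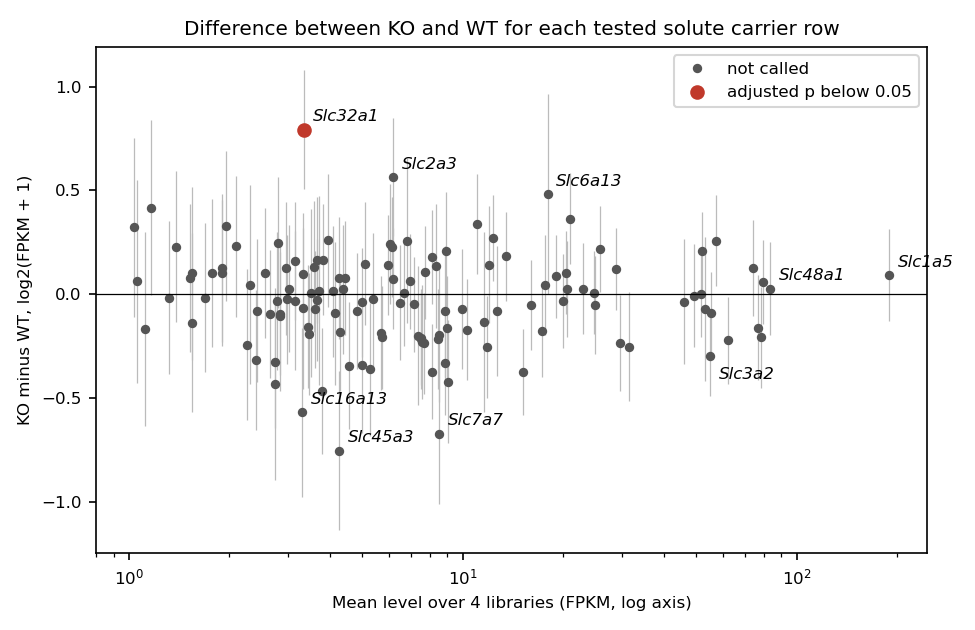
Difference between KO and WT on the log2(FPKM + 1) scale for each of the 131 tested solute carrier rows, against the mean level over 4 libraries in FPKM on a log axis, with the 95% confidence interval as a vertical line. Slc32a1 in red, at 0.79, is the row called by limma, and rows at high level lie close to 0.

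The promoters of 4 genes are printed as a description, and no result here depends on them. They belong to the row called, the sugar carrier and the amino acid carrier with the largest negative differences, and the cystine carrier. The last was chosen because its promoter holds the response element of amino acid shortage. Each printed sequence is the 250 bases before a RefSeq start in GRCm38.p6, written 5′ to 3′ on the strand of the gene. Capitals mark the ATF4 composite element, TGATGNAA on either strand, which is bound by a factor induced when amino acids run short. The windows are chr2:158610508-158610757 (plus strand) for Slc32a1, chr1:131962665-131962914 (plus) for Slc45a3, chr14:54417945-54418194 (minus) for Slc7a7 and chr3:50443614-50443863 (minus) for Slc7a11.
Slc32a1: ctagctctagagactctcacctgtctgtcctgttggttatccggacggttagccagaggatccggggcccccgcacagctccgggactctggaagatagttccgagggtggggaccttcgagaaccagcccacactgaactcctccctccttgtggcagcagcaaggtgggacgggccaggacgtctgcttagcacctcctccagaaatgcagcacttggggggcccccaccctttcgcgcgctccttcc
Slc45a3: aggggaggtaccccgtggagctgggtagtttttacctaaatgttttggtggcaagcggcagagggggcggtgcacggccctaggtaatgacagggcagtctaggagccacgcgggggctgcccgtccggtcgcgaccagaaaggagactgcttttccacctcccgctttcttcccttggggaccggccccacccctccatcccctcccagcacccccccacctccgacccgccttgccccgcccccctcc
Slc7a7: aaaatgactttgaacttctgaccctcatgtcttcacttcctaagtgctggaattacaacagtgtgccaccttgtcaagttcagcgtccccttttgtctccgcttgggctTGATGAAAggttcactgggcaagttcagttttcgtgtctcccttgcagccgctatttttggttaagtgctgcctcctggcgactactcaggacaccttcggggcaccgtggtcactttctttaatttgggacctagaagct
Slc7a11: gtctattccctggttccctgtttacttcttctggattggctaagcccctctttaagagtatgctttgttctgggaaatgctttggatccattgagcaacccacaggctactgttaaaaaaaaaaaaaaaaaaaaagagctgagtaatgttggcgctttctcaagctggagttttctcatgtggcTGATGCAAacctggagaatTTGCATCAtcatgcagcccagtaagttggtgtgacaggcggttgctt
The Slc7a11 window holds the element in both orientations, beginning 66 and 47 bases before the start. The printed Slc7a7 window, one of several RefSeq starts of this gene, holds it once, 141 bases before the start. Another window of this gene holds a separate match 243 bases before its start, and its remaining windows hold none. Neither the Slc32a1 window nor the printed Slc45a3 window holds these letters. The window of another RefSeq start of Slc45a3 does not hold them either. Over all 32851 promoter windows of the reference, 3.45% hold the element, against 7 of the 176 windows (3.98%) of the 133 solute carriers with an entry. The E-box CACGTG, the core of a lysosomal gene element, was in 6.02% of all windows and 10.8% of the solute carriers' windows. The metal response core TGCNCNC was in 44.4% of all windows and 45.5% of theirs. Both strands were searched, and a match is a description of the letters, not a binding site.

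Slc32a1 encodes the vesicular inhibitory amino acid transporter, which loads GABA and glycine into synaptic vesicles and is known from inhibitory neurons. It had 4.43 and 4.62 FPKM in KO libraries, against 2.11 and 2.26 FPKM in WT libraries. In recovered reads that is 228 and 220 in KO libraries, against 109 and 105 in WT libraries. The groups lay much farther apart than the replicates within either. It rose by 0.79 on the log2 scale (SE 0.118, 95% interval 0.51 to 1.08, limma adjusted p = 0.0497), a ratio of 2.07 of the group means. The call sits at the threshold: of 11 alternative settings, 2 kept it and 9 did not, with adjusted p between 0.00773 and 0.289 and differences between 0.76 and 1.05. The gene lies on chromosome 2 at 158610767 to 158615748, plus strand, in GRCm38, and 24.9% of its exonic length is shared with Gm14205 on the opposite strand. The kit description does not mention marking of strand, so reads from that gene cannot be told apart from its own.

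The other carriers of vesicles were Slc17a9, Slc18a2, Slc17a5 and Slc18a1. Slc17a9, which packs ATP into vesicles, had 11.9 and 12.99 FPKM in KO libraries, against 9.16 and 10.1 FPKM in WT libraries (log2 difference 0.34, SE 0.0989, limma adjusted p = 0.159). Its groups did not overlap, yet the difference did not pass. Slc18a2, the vesicular monoamine carrier of neurons, mast cells and basophils, had 4.05 and 4.12 FPKM in KO libraries, against 3.599 and 3.47 FPKM in WT libraries (log2 difference 0.17). The summed level of the basophil and mast cell markers was 289 and 283 FPKM in KO libraries, against 494 and 557 FPKM in WT libraries, and most of that sum was Cpa3. Without Cpa3 the list summed to 67.9 and 70.6 FPKM in KO libraries, against 92.9 and 88.3 FPKM in WT libraries. The markers did not share 1 direction. Prss34, Cpa3, Gata2, Ms4a2 and Cma1 had both KO libraries below both WT libraries, and limma called Prss34 and Cpa3 lower. Mcpt8 and Kit had both KO libraries above both WT libraries, as Slc18a2 had. Slc6a13, a surface carrier of GABA and taurine named here after its values were seen, had 17.3 and 25.1 FPKM in KO libraries, against 16.7 and 12.8 FPKM in WT libraries (log2 difference 0.48, limma adjusted p = 0.24). The KO libraries of Slc6a13 differed from each other by more than the nearest KO and WT libraries did.

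**Figure D3:**
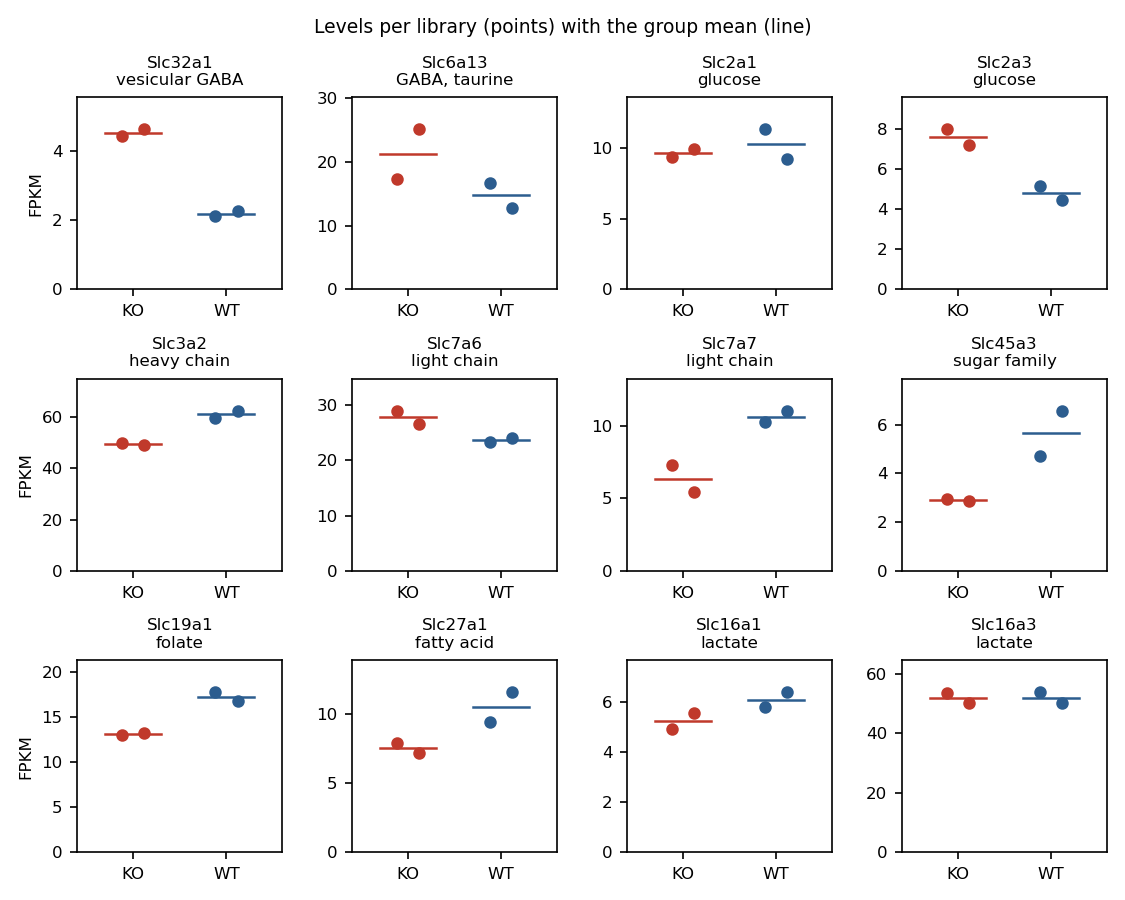
Level in FPKM of 12 solute carriers in each library, KO left of WT, with a point for each library and a line at the group mean; every axis starts at 0. The KO and WT points of Slc32a1, Slc2a3, Slc7a7, Slc45a3 and Slc19a1 do not overlap, while those of Slc16a3 and Slc2a1 do.

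The amino acid class, with Slc36a3os and Slc7a6os counted in it, made up 30 rows, of which 23 were tested. None was called, 14 lay above 0 and 9 below, and the median difference was 0.08. At an unadjusted p below 0.05, 3 were higher and 3 lower. The heavy chain Slc3a2 had 49.7 and 48.9 FPKM in KO libraries, against 59.6 and 62.3 FPKM in WT libraries (log2 difference −0.30, SE 0.0785, limma adjusted p = 0.136). The replicates of Slc3a2 agreed closely and the groups did not overlap. Its light chain Slc7a7, an exchanger of basic for neutral amino acids, had 7.27 and 5.45 FPKM in KO libraries, against 10.3 and 11.04 FPKM in WT libraries (log2 difference −0.67, SE 0.139, limma adjusted p = 0.0963). With limma-voom on recovered reads Slc7a7 was called lower (log2 difference −0.74, adjusted p = 0.0117). Human SLC7A7 is known for its role in macrophages, and the macrophage markers summed to 64.3 and 63.1 FPKM in KO libraries, against 115 and 136 FPKM in WT libraries, with 4 of 7 tested called lower. Their part in the Slc7a7 values was not tested.

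The other tested light chains, Slc7a5, Slc7a6 and Slc7a8, lay above 0. Slc7a6, which exchanges the same kinds of amino acid and was named after its values were seen, had 28.9 and 26.6 FPKM in KO libraries, against 23.3 and 24.1 FPKM in WT libraries (log2 difference 0.22, limma adjusted p = 0.225). The ratio of Slc7a6 to Slc7a7 was 3.97 and 4.88 in KO libraries, against 2.28 and 2.18 in WT libraries. Slc7a5, the light chain for leucine and other large neutral amino acids, had 6.18 and 8.91 FPKM in KO libraries, against 6.07 and 6.05 FPKM in WT libraries (log2 difference 0.26, limma adjusted p = 0.405). One KO library of Slc7a5 stood above the other 3 libraries. Slc7a11, the cystine and glutamate exchanger, was below the filter, at 0.257 and 0.211 FPKM in KO libraries (66 and 50 reads) and 0.249 and 0.264 FPKM in WT libraries (64 and 61 reads), with overlap. Summed over Slc7a5, Slc7a6, Slc7a7, Slc7a8 and Slc7a11, the light chains came to 46.2 and 44.5 FPKM in KO libraries, against 43.2 and 44.5 FPKM in WT libraries. The heavy chain stood at 1.07 and 1.10 times that sum in KO libraries, against 1.38 and 1.40 times in WT libraries.

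Among sodium-coupled carriers of glutamine and alanine, Slc38a1 had 15.4 and 15.9 FPKM in KO libraries, against 15.5 and 17.05 FPKM in WT libraries. Slc38a2, which is induced by amino acid shortage, had 11.6 and 13.6 FPKM in KO libraries, against 10.5 and 12.1 FPKM in WT libraries. The groups overlapped for both, and their 95% intervals were −0.27 to 0.17 and −0.14 to 0.42 on the log2 scale. Atf4, the factor of the amino acid response, had 52.3 and 60.98 FPKM in KO libraries, against 52.2 and 60.7 FPKM in WT libraries. Of the 12 genes listed for amino acid sensing, 11 were tested and 0 were called by limma or limma-voom. The median difference was −0.23, and 2 were lower at an unadjusted p below 0.05 (9.35% of all tested rows). For 5 of these 11 the KO libraries were both under the WT ones (24.9% of all tested rows), and for 1 both over (30.5%).

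Sugar carriers made up 17 rows, 12 of them tested, and none was called. At an unadjusted p below 0.05, Slc2a3 was higher and Slc45a3 lower. As many lay above 0 as below, 6 each, and the median of −0.0025 turned to 0.0028 with scaling by upper quartile. Slc2a3, a glucose carrier of high affinity known from neurons and blood cells, had 7.99 and 7.19 FPKM in KO libraries, against 5.18 and 4.45 FPKM in WT libraries (log2 difference 0.56, SE 0.116, limma adjusted p = 0.0948). With limma-voom it was called higher (log2 difference 0.66, adjusted p = 0.00732). Slc2a1, the widespread basal glucose carrier, had 9.40 and 9.98 FPKM in KO libraries, against 11.3 and 9.23 FPKM in WT libraries (95% interval −0.36 to 0.22). The groups overlapped for Slc2a1 and not for Slc2a3, and the ratio of Slc2a1 to Slc2a3 was 1.18 and 1.39 in KO libraries, against 2.19 and 2.07 in WT libraries. The 7 of 10 mature neutrophil markers called higher in KO lay on the same side of 0 as Slc2a3. Ltf, Mmp8 and Cxcr2 lay below 0, with log2 differences of −0.05, −0.04 and −0.11. The part of neutrophils in the Slc2a3 values was not tested.

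The Slc2 carrier at the highest level was neither of these. Slc2a6, a lysosomal member of the family, had 48.9 and 54.3 FPKM in KO libraries, against 62.3 and 47.3 FPKM in WT libraries, and the WT libraries enclosed the KO ones. Slc50a1, of the family that moves sugars out of cells, had 82.1 and 72.2 FPKM in KO libraries, against 72.2 and 68.7 FPKM in WT libraries. Slc45a3, of a family of proton-coupled sugar carriers, had 2.96 and 2.85 FPKM in KO libraries, against 4.73 and 6.56 FPKM in WT libraries (log2 difference −0.75, SE 0.157, limma adjusted p = 0.0977). Its groups did not overlap and limma-voom called it lower (log2 difference −0.92, adjusted p = 0.0132). Of its exonic length 13.5% is shared with Gm29103, on the same strand. Of 4 tested genes for the traffic and induction of glucose carriers, 0 were called by limma or limma-voom and 0 had an unadjusted p below 0.05. Txnip, which removes Slc2a1 from the surface, had 11.8 and 13.2 FPKM in KO libraries, against 12.5 and 14.1 FPKM in WT libraries.

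Carriers of lactate, other carboxylates and bile acids made up 13 rows, 9 of them tested and none called, with 2 lower at an unadjusted p below 0.05. The lactate carrier at the higher level was Slc16a3, the export form of cells with high glycolysis. It had 53.4 and 50.2 FPKM in KO libraries, against 53.7 and 50.01 FPKM in WT libraries, and its 95% interval was −0.21 to 0.21 on the log2 scale. Both groups covered almost the same range. Slc16a1, which moves lactate both ways, had 4.92 and 5.57 FPKM in KO libraries, against 5.82 and 6.40 FPKM in WT libraries (log2 difference −0.19, limma adjusted p = 0.38). The ratio of Slc16a3 to Slc16a1 was 10.9 and 9.01 in KO libraries, against 9.23 and 7.81 in WT libraries, and the ranges overlapped. Bsg, the chaperone of both, had 324 and 277 FPKM in KO libraries, against 353 and 313 FPKM in WT libraries, and 0 of the 3 chaperone genes were called by either tool or had an unadjusted p below 0.05.

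Other Slc16 members lay on both sides of 0. Slc16a13 had 2.65 and 2.26 FPKM in KO libraries, against 4.86 and 3.48 FPKM in WT libraries (log2 difference −0.57, SE 0.167, limma adjusted p = 0.159). Slc16a10, a carrier of aromatic amino acids and thyroid hormone, had 7.82 and 7.60 FPKM in KO libraries, against 9.28 and 10.7 FPKM in WT libraries (log2 difference −0.33, limma adjusted p = 0.176). Neither overlapped between groups and neither passed. Slc16a6 had 19.7 and 19.5 FPKM in KO libraries, against 18.8 and 17.9 FPKM in WT libraries, and 21.5% of its exonic length is shared with Amz2 on the opposite strand.

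The series concerns succinate, and its sodium-coupled carriers are those of family 13. Slc13a3, which takes up succinate and other dicarboxylates, had 0.812 and 1.01 FPKM in KO libraries, against 0.592 and 0.416 FPKM in WT libraries, below the filter. Slc13a2, another dicarboxylate carrier, had 1.46 and 1.36 FPKM in KO libraries and 1.9998 and 1.35 FPKM in WT libraries. Slc13a5, which takes up citrate, had 1.27 and 1.69 FPKM in KO libraries, against 0.779 and 0.927 FPKM in WT libraries (log2 difference 0.42, limma adjusted p = 0.244). All 3 were low, both KO libraries lay above both WT libraries for Slc13a3 and Slc13a5, and none was called. Slc13a2 and Slc13a5 were named after their values were seen. The succinate receptor Sucnr1 had no row under that symbol, so it was not analysed here.

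Carriers of metals and haem made up 25 rows, 22 of them tested and none called, with 2 higher and 4 lower at an unadjusted p below 0.05. A count of 13 lay below 0 and 9 above, with a median of −0.06. Slc39a11, a zinc carrier, had 65.4 and 59.5 FPKM in KO libraries, against 53.8 and 50.2 FPKM in WT libraries (log2 difference 0.26, SE 0.0898, limma adjusted p = 0.197). Slc31a1, which takes up copper, had 7.19 and 6.71 FPKM in KO libraries, against 9.36 and 9.22 FPKM in WT libraries (log2 difference −0.37, SE 0.0943, limma adjusted p = 0.13). These 2 had groups that did not overlap, in opposite directions. Slc39a7, which releases zinc from the endoplasmic reticulum, had 2.90 and 3.13 FPKM in KO libraries, against 4.91 and 4.199 FPKM in WT libraries (log2 difference −0.46, limma adjusted p = 0.141). As 80.7% of its exonic length is shared with Gm20427 on the same strand, its value is uncertain.

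The iron carriers lay on both sides of 0. Slc40a1, the iron exporter, had 14.7 and 14.1 FPKM in KO libraries, against 12.2 and 12.9 FPKM in WT libraries (log2 difference 0.18). Slc11a1, the divalent metal carrier of the phagosome of macrophages and neutrophils, had 4.63 and 3.96 FPKM in KO libraries, against 6.30 and 5.14 FPKM in WT libraries (log2 difference −0.34). Slc11a2, which takes iron from the gut lumen and from endosomes, had 2.25 and 1.74 FPKM in KO libraries, against 2.66 and 2.40 FPKM in WT libraries (log2 difference −0.24). None of the 3 passed, with limma adjusted p of 0.29, 0.23 and 0.391. For zinc, the uptake carrier Slc39a10 had 3.26 and 3.05 FPKM in KO libraries, against 3.55 and 3.96 FPKM in WT libraries, and the exporter Slc30a1, induced by zinc, had 0.497 and 0.638 FPKM in KO libraries, against 0.475 and 0.402 FPKM in WT libraries. Of 9 tested genes of the zinc and iron response 0 were called by limma, 2 were higher and 2 lower at an unadjusted p below 0.05, and limma-voom called 1 higher and 2 lower. Metallothionein Mt1 had 130 and 163 FPKM in KO libraries, against 145 and 122 FPKM in WT libraries, with overlap.

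Nucleoside and nucleotide sugar carriers made up 27 rows, 23 of them tested and none called, with 2 lower at an unadjusted p below 0.05. They lay mostly on 1 side: 17 below 0 and 6 above, with a median of −0.07, and the same split under both other scalings. In the Slc35 family alone 15 of 19 tested lay below 0, with a median of −0.09, and the KO libraries were both under the WT ones for 9 of them and both over for 2, where 24.9% and 30.5% of all tested rows were. The whole table had 46.0% of its tested rows below 0. Summed over its 22 rows, the family came to 398 and 364 FPKM in KO libraries, against 426 and 415 FPKM in WT libraries, with no overlap.

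Single members of the family differed little. Slc35a4 had 76.1 and 68.5 FPKM in KO libraries, against 88.4 and 78.9 FPKM in WT libraries (log2 difference −0.21, limma adjusted p = 0.292). Slc35b1, an ATP carrier of the endoplasmic reticulum, had 76.9 and 67.2 FPKM in KO libraries, against 76.6 and 84.9 FPKM in WT libraries, with overlap. Slc35c2, related to the GDP-fucose carrier, had 60.1 and 54.7 FPKM in KO libraries, against 67.8 and 66.3 FPKM in WT libraries (log2 difference −0.22, limma adjusted p = 0.22). Slc35a1, the CMP-sialic acid carrier, showed the lowest difference of the family, −0.25 (95% interval −0.50 to −0.01, limma adjusted p = 0.229), at 11.3 and 10.01 FPKM in KO libraries, against 13.3 and 12.5 FPKM in WT libraries. At the cell surface Slc29a1, through which nucleosides and the leukaemia drug cytarabine enter, had 24.7 and 24.1 FPKM in KO libraries, against 27.3 and 23.6 FPKM in WT libraries (95% interval −0.29 to 0.18).

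**Figure D4:**
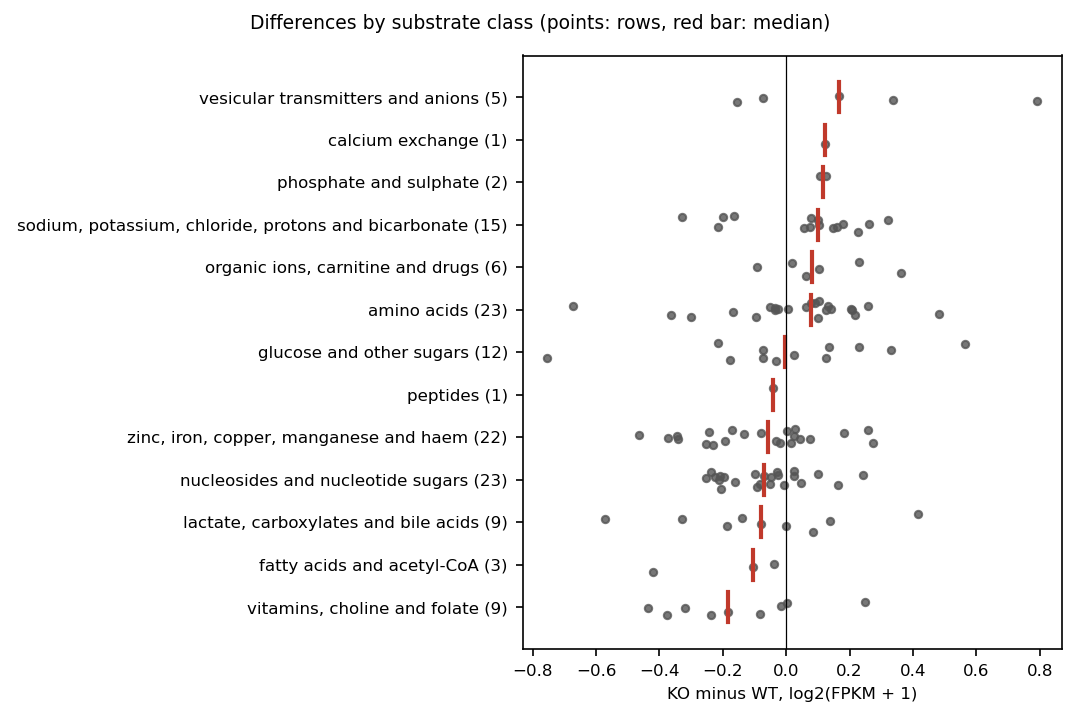
Difference between KO and WT on the log2(FPKM + 1) scale for each tested solute carrier row, grouped by what the family carries, with the number of tested rows in brackets and a red bar at the median of the class. Nucleoside and nucleotide sugar carriers lie mostly below 0 and ion carriers mostly above it, with medians of −0.07 and 0.10.

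Carriers of sodium, potassium, chloride, protons and bicarbonate lay mostly above 0, with 11 of 15 tested above it, 4 below and a median of 0.10. None was called, and 1 was lower at an unadjusted p below 0.05. Slc9a3r1, a scaffold of ion carriers and not a carrier, was the row at the highest level, at 83.7 and 77.9 FPKM in KO libraries and 77.1 and 78.1 FPKM in WT libraries. Slc9a8, a Golgi sodium and proton exchanger, had 6.53 and 6.90 FPKM in KO libraries, against 5.67 and 5.53 FPKM in WT libraries (log2 difference 0.23, limma adjusted p = 0.262). Slc12a4, a potassium and chloride carrier, had 2.49 and 2.15 FPKM in KO libraries, against 3.07 and 3.27 FPKM in WT libraries (log2 difference −0.33, limma adjusted p = 0.229). Slc12a9, of the same family, had 7.85 and 8.99 FPKM in KO libraries, against 9.41 and 9.65 FPKM in WT libraries. So the Slc12 family did not share 1 direction, with 2 tested members on each side of 0. Of the 4 tested subunits of the sodium pump, which keeps the gradient these carriers use, 0 were called by limma, 1 was higher and 1 lower at an unadjusted p below 0.05, and limma-voom called 1 higher.

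Slc4a1, the anion exchanger of red cells, bears on the erythroid markers. It had 0.444 and 0.276 FPKM in KO libraries, against 0.488 and 0.197 FPKM in WT libraries, with overlap and below the filter. The erythroid markers summed to 429 and 522 FPKM in KO libraries, against 97.8 and 90.3 FPKM in WT libraries, and 5 of 7 tested were called higher. The 4 globin rows rose. Klf1, an erythroid transcription factor, had 0.495 and 0.536 FPKM in KO libraries, against 2.23 and 0.943 FPKM in WT libraries (log2 difference −0.72, limma adjusted p = 0.207), the 1 erythroid marker lower at an unadjusted p below 0.05. Epor, below the filter, had 0.328 and 0.236 FPKM in KO libraries, against 0.926 and 0.364 FPKM in WT libraries. The B cell markers summed to 137 and 120 FPKM in KO libraries, against 225 and 216 FPKM in WT libraries, with 3 of 5 tested called lower. Cd79a went the other way, at 3.09 and 3.71 FPKM in KO libraries, against 1.79 and 1.82 FPKM in WT libraries. Its log2 difference was 0.65 (limma adjusted p = 0.101). At an unadjusted p below 0.05, 1 B cell marker was higher and 4 were lower. The T and NK cell markers summed to 432 and 364 FPKM in KO libraries, against 296 and 357 FPKM in WT libraries, with 0 of 4 tested called by limma, 2 lower at an unadjusted p below 0.05 and 1 called lower by limma-voom. Nkg7 made up most of that sum, and without it the list summed to 6.39 and 8.67 FPKM in KO libraries, against 14.04 and 15.8 FPKM in WT libraries. Of the basophil and mast cell markers 2 of 5 tested were called lower, and 2 were higher at an unadjusted p below 0.05. No marker analysed was at 0 in every library, and Kit stands in both the mast cell and the stem cell list. The part of these cells in the solute carrier values was not tested.

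**Figure D5:**
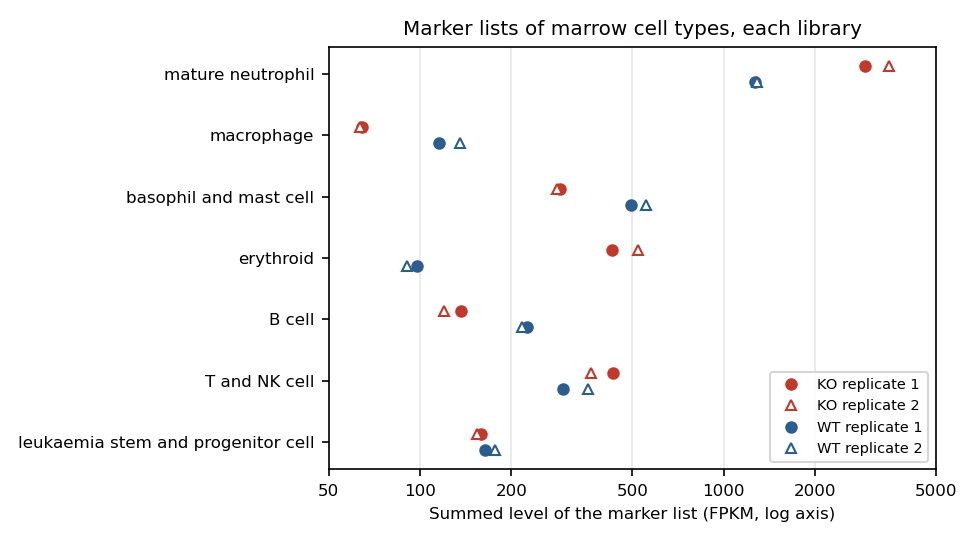
Summed level in FPKM, on a log axis, of the markers of 7 marrow cell types in each library, with KO in red above WT in blue. Neutrophil and erythroid lists lie higher in both KO libraries than in both WT libraries, macrophage, basophil and mast cell, and B cell lists lie lower, and the stem and progenitor list lies at 154 to 176 FPKM.

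Vitamin, choline and folate carriers had the lowest class median, −0.18, with 7 of 9 tested below 0, none called and 2 lower at an unadjusted p below 0.05. Slc19a1, the reduced folate carrier, which also brings in methotrexate, had 12.96 and 13.2 FPKM in KO libraries, against 17.7 and 16.8 FPKM in WT libraries (log2 difference −0.37, SE 0.0844, limma adjusted p = 0.111). With limma-voom it was called lower (log2 difference −0.40, adjusted p = 0.0351). The replicates of Slc19a1 lay within 1 FPKM of each other in both groups. Slc44a2, a choline carrier known from the neutrophil surface in humans, had 26.01 and 28.2 FPKM in KO libraries, against 33.9 and 30.3 FPKM in WT libraries (log2 difference −0.24, limma adjusted p = 0.234). Slc44a2 lay on the other side of 0 from the 7 neutrophil markers called higher. Ltf, Mmp8 and Cxcr2 of that list lay below 0, as Slc44a2 did.

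The carriers of organic ions and drugs had 5 of 6 tested above 0. Slc22a4, which takes up ergothioneine, had 24.96 and 22.5 FPKM in KO libraries, against 17.9 and 18.5 FPKM in WT libraries (log2 difference 0.36, SE 0.09, limma adjusted p = 0.126). Slc22a5, the carnitine carrier, had 2.93 and 4.63 FPKM in KO libraries, against 3.51 and 3.79 FPKM in WT libraries, and the KO libraries enclosed the WT ones. Slc22a17, a receptor for lipocalin, had 20.9 and 21.6 FPKM in KO libraries, against 20.2 and 19.1 FPKM in WT libraries, and Slc22a15 had 1.55 and 1.61 FPKM in KO libraries, against 1.17 and 1.23 FPKM in WT libraries. None of these 4 passed, and Slc22a4 was the one with an unadjusted p below 0.05.

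Fatty acid carriers were all 3 below 0. Slc27a1, which takes up long-chain fatty acids, had 7.90 and 7.18 FPKM in KO libraries, against 9.42 and 11.5 FPKM in WT libraries (log2 difference −0.42, SE 0.122, limma adjusted p = 0.158), and limma-voom called it lower (log2 difference −0.46, adjusted p = 0.0429). Slc27a4, of the same family, had 2.66 and 2.70 FPKM in KO libraries and 3.39 and 2.57 FPKM in WT libraries, with overlap. Slc33a1, which brings acetyl-CoA into the endoplasmic reticulum, had 4.71 and 5.10 FPKM in KO libraries, against 4.90 and 5.23 FPKM in WT libraries, and 32.0% of its exonic length is shared with a gene on the opposite strand.

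The phosphate, calcium and peptide carriers that were tested lay close to 0. The phosphate carriers Slc20a1 and Slc20a2, which are also retrovirus receptors, differed by 0.11 and 0.13 on the log2 scale, with SE 0.092 and 0.132. Slc8b1, the mitochondrial sodium and calcium exchanger, had 29.1 and 30.9 FPKM in KO libraries, against 26.997 and 27.9 FPKM in WT libraries (log2 difference 0.12). Slc15a4, a lysosomal carrier of peptides and histidine, had 6.01 and 6.72 FPKM in KO libraries, against 7.03 and 6.13 FPKM in WT libraries, with overlap. Its relative Slc15a3 was below the filter, at 0.514 and 0.385 FPKM in KO libraries and 0.533 and 0.439 FPKM in WT libraries.

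The 43 rows below the filter reached at most 1.19 FPKM in any library. Both KO libraries lay above both WT libraries for 10 of them and below for 8, and the groups overlapped for 25. The share over all rows below the filter was not taken, so these counts have no background beside them and show no direction. Just outside the filter were Slc35g1, Slc22a18 and Slc38a6, at means of 0.809, 0.874 and 0.925 FPKM over the 4 libraries. Just inside were Slc12a8, Slc22a21 and Slc36a3, at 1.04, 1.06 and 1.12 FPKM. Slc9a7 had 0 reads in every library, which allows up to 0.0426 and 0.0461 FPKM in the KO libraries and 0.0426 and 0.0473 FPKM in the WT libraries at the level of 3 reads.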

How the data were processed

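Poly(A) RNA of 4 libraries, 2 KO and 2 WT, was sequenced. The tools named, per the submitters' processing notes, are HISAT2 2.1.0, CASAVA, DESeq2 and featureCounts, and the build is GRCm38. What each tool did is not given in the sources used here. A single table of 16442 rows was deposited by the authors, and its lowest value was exactly 1. From its values the deposited unit was read as FPKM with 1 added, and 1 was subtracted.

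Rows were matched by symbol to GENCODE M21, and 16003 (97.3%) matched 1 gene, 171 of the 174 members among them. Up to 30 reads, FPKM times exonic length came within 0.05 of a whole read for 99.0% to 99.2% of values, and whole reads were recovered in all libraries for 15776 rows (98.6% of those matched). Library totals in reads follow from these steps.

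The main test was limma 3.58.1 (R 4.3.3), trend form, two-sided, on log2(FPKM + 1), for 11768 rows with a mean of at least 1 FPKM, with Benjamini-Hochberg adjustment over them and a threshold of 0.05. Differences are KO minus WT on that scale, which understates the change of low genes. The fit had 2 residual and 4.1 prior degrees of freedom. A permutation of 2 against 2 libraries cannot give a two-sided p below 0.333.

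The members, classes and lists were chosen with earlier results of these data known. Named are the row called, the 2 highest and the 2 of smallest p in each class, 24 carriers and 5 partner genes named whatever their values, and others as stated. Of those partner genes, Mt2 had no row under that symbol, so no value is given for it. Alternatives were a pseudocount of 0.1, no filter, median-ratio scaling, a replicate block, each library left out, and limma-voom on recovered reads. Upper-quartile scaling, and no filter without rows at 0 in every library, were added after seeing the data. RefSeq promoters (GRCm38.p6) matched 133 members by symbol. Exons of 51 members overlap another gene, 15 of them by over 10% of their length. One erythroid marker is not reported here and was left out of its list.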

Additional observations from a re-analysis of the deposited data

How the results depend on the processing

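The count of solute carriers called higher, 1 in the report, was 0 with no filter on level, with no filter and rows at 0 in every library left out, with upper-quartile scaling, with median-ratio scaling and with a replicate block, and 2 with limma-voom. Leaving out each library in turn gave 0 in all 4 fits, which also called fewer rows of the whole table, between 4 and 50 higher, and the Slc32a1 difference was 0.76 to 0.83 in them. Where a library is left out, the lone library of its group is assumed to vary like the other group. The count called lower was 0 in every fit but limma-voom, which gave 4, and limma gave 16 at an unadjusted p below 0.05. The cause was not tested. With no filter no row of the table was called, 0 higher and 0 lower, since 236 rows at 0 in every library have no spread. Without them 22 and 10 were called, against 71 and 48 in the report, and limma-voom called 507 and 320.

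The median difference of the tested members, −0.0183, was −0.029 with a pseudocount of 0.1, −0.0281 with median-ratio scaling and −0.0259 with limma-voom. Leaving out each library gave −0.0296 to 0.0269, above 0 without KO replicate 1 (0.0269) and without WT replicate 1 (0.0124). The deviations of same-numbered libraries had a correlation of 0.009 over the tested rows. That value cannot show how the libraries were prepared, and nothing in the labels says that the numbers pair them. The replicate block left 40 rows of the table called higher and 26 lower, with 0 members. Of 539 refits of 49 named members, 16 changed sign, in 10 members, none of them called.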

Other observations

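ATP-binding cassette transporters, which pump lipids, drugs and peptides at the cost of ATP, had a median log2 difference of 0.28 over 12 tested of 18 listed, against 0.025 over all tested rows. Their summed level did not rise. Over the 15 with a row, it was 189 and 185 FPKM in KO libraries, against 190 and 194 FPKM in WT libraries. None was called by limma, 5 were higher and 1 lower at an unadjusted p below 0.05 (11.4% and 9.35% of all tested rows), and limma-voom called 5 higher (4.46% of all rows). The KO libraries were both over the WT ones for 8 and both under for 3 (30.5% and 24.9% of all tested rows). Abca7, a lipid transporter, had 20.7 and 24.4 FPKM in KO libraries, against 16.8 and 16.9 FPKM in WT libraries (limma adjusted p = 0.135). Abcc4, which exports nucleotides and drugs, had 18.3 and 20.2 FPKM in KO libraries, against 13.3 and 15.2 FPKM in WT libraries (limma adjusted p = 0.126). Tap2, a subunit of the peptide transporter for antigen presentation, had 82.2 and 77.0 FPKM in KO libraries, against 97.1 and 96.0 FPKM in WT libraries (limma adjusted p = 0.163). These genes were named after their values were seen.

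Hmox1, the haem-degrading enzyme, had 9.43 and 8.88 FPKM in KO libraries, against 14.7 and 18.6 FPKM in WT libraries (log2 difference −0.79, limma adjusted p = 0.0567). Fth1, the ferritin heavy chain, had 242 and 236 FPKM in KO libraries, against 337 and 319 FPKM in WT libraries (log2 difference −0.45, limma adjusted p = 0.0948). Both were named after their values were seen, and limma-voom called both lower, with adjusted p of 0.00818 for Hmox1 and 0.0106 for Fth1. Also of the zinc and iron response, Ireb2 and Tfrc lay above 0, with log2 differences of 0.36 and 0.38. Their groups did not overlap, and limma adjusted p was 0.2 for each. Ireb2 was called higher by limma-voom (adjusted p = 0.0492) and Tfrc was not (adjusted p = 0.061). They too were named after their values were seen. The 4 tested genes of carrier ubiquitination and the WNK kinases had a median difference of 0.12, with 0 called by limma or limma-voom and 1 higher at an unadjusted p below 0.05.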
